A study of Arabidopsis thaliana with 12 samples.

Results

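The aquaporin family of Arabidopsis was followed in seedlings of 2 lines with and without salt. Its 35 members were taken as a fixed list of loci in 5 subfamilies (5 PIP1, 8 PIP2, 10 TIP, 9 NIP and 3 SIP genes). The list is the whole family rather than a choice by expression. Members are written with a hyphen, as in protein databases, and the form with a semicolon is given with the locus. All 35 loci had at least 1 probe on the array, 32 passed the filter on dim probes and were tested, and these stood among 23680 features tested in all. Of the 80 probes of the family, 75 were kept. Col-0 is the wild type. The iU1-52 line is 1 transgenic line in which the *glcna.ut2-1* mutant carries a construct for double-stranded RNA interference with *GlcNA.UT1*, so that both genes for N-acetylglucosamine-1-P uridylyltransferase are affected. Seeds of each line were sown either on MS agar or on MS agar with 200 mM NaCl, and whole seedlings were harvested after 14 days. Each of the 4 groups (Col-0 MS, iU1-52 MS, Col-0 NaCl and iU1-52 NaCl) held 3 replicates, given as independent experiments, on 1 array each.

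Aquaporins are channel proteins of cell membranes that pass water and, in some subfamilies, small uncharged solutes. In plants, the plasma membrane intrinsic proteins (PIPs) carry water across the cell's outer membrane, and PIP1 proteins generally reach that membrane together with PIP2 proteins. The tonoplast intrinsic proteins (TIPs) lie in the membrane of the vacuole, the nodulin-like intrinsic proteins (NIPs) include channels for boric acid, lactic acid and metalloids, and the small basic intrinsic proteins (SIPs) lie in the endoplasmic reticulum. In seeds, TIP3-1 and TIP3-2 take the place of the vegetative TIPs in the membranes of protein storage vacuoles.

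On each array 75.4% to 79.4% of spots read well above background, and 0 were saturated. Replicate 1 of the iU1-52 NaCl group stood apart from the other 2. The lowest correlation between arrays of that group was 0.978, compared with 0.990 or more in the other groups, the median SD of a feature was 0.215 against 0.071 to 0.079 on the log2 scale, and the 75th percentile of its signal was 2503 against 3872 and 3920. The counts of members called, and the called differences between the lines in NaCl, are therefore also given without this array. Arrays with the same replicate number shared a slide, and the groups kept their positions on all slides. Group and slide position cannot be told apart. No probe was matched to the locus of the RNA interference target *GlcNA.UT1* (0 probes), and its level was not analysed here. The leaf and root markers, 7 and 10 genes, were well above background on all 3 arrays of every group. Values below are log2 normalized signals unless called linear, means are given ± SD of 3 arrays, and a member was called when its Benjamini-Hochberg adjusted p over all features, from limma, was under 0.05 and its difference was at least 2-fold (1 on the log2 scale).

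On MS with NaCl, the 2 lines differed in 9 aquaporins. The seed vacuole channels TIP3-1 and TIP3-2, the root channel NIP2-1 and TIP2-3 were higher in iU1-52, by 2.67- to 6.23-fold. PIP2-6, TIP1-2, NIP6-1, NIP7-1 and SIP1-2 were lower in iU1-52, by 2.00- to 3.92-fold. Of the 32 members tested, 4 were called higher, where 5.35% of all features were, and 5 were called lower, where 5.68% were. Without the array that stood apart, 4 were called higher and 4 lower, beside 7.26% and 7.15% of all features. TIP1-2 was lost, and the others differed by 1.59 for TIP2-3, 2.07 for TIP3-1, -1.49 for NIP6-1, -1.81 for NIP7-1 and -1.40 for SIP1-2, with those of PIP2-6, TIP3-2 and NIP2-1 given below. By the adjusted p alone, 7 members were higher and 14 lower, and the same rule took in 27.7% and 23.3% of all features. The members' median difference was -0.20, and 23 of 32 lay below 0 (21 of 32 without the array that stood apart), whereas the median over all features was 0.05.

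On MS without salt, 0 of 32 members were called by limma in either direction (0.300% of all features were called higher and 0.0211% lower), and 0 passed the adjusted p alone. Of the 32 members, 24 lay above 0, among them all 5 PIP1 and 7 of 8 PIP2 genes, with a median of 0.09 beside -0.01 over all features. In 9 members every iU1-52 array lay above every Col-0 array, as it did in 7.28% of all features. Differences between the lines ran from -0.19 for TIP3-2 to 0.45 for PIP2-4, and TIP3-2 was well above background on 1 of 3 arrays in each MS group. At an unadjusted p under 0.05 there was 1 member, PIP2-7, at 0.25 (unadjusted p from limma = 0.012). For NIP2-1 the interval of the difference was -0.12 to 0.70, and for TIP2-3 it was -0.51 to 1.38, so that a 2-fold difference lay outside the first interval and inside the second. The spread behind these intervals and p-values was pooled over all 12 arrays, among them the more variable iU1-52 NaCl group. On MS alone, NIP2-1 had SDs of 0.04 in Col-0 and 0.08 in iU1-52, and its groups did not overlap. A fit of only the 6 MS arrays also called 0 members in either direction.

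The question whether the 2 lines responded differently to salt was tested by the interaction of line and salt. It was called for 9 members. In 3 of them (TIP3-1, TIP3-2 and NIP2-1) the response to NaCl lay higher in iU1-52 than in Col-0, where 4.27% of all features did, and in 6 (PIP2-6, TIP1-2, TIP2-1, NIP6-1, NIP7-1 and SIP1-2) it lay lower, where 5.27% did. Without the array that stood apart, 3 and 5 were called, beside 6.46% and 7.04% of all features. TIP1-2 was the member lost.

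**Figure D1:**
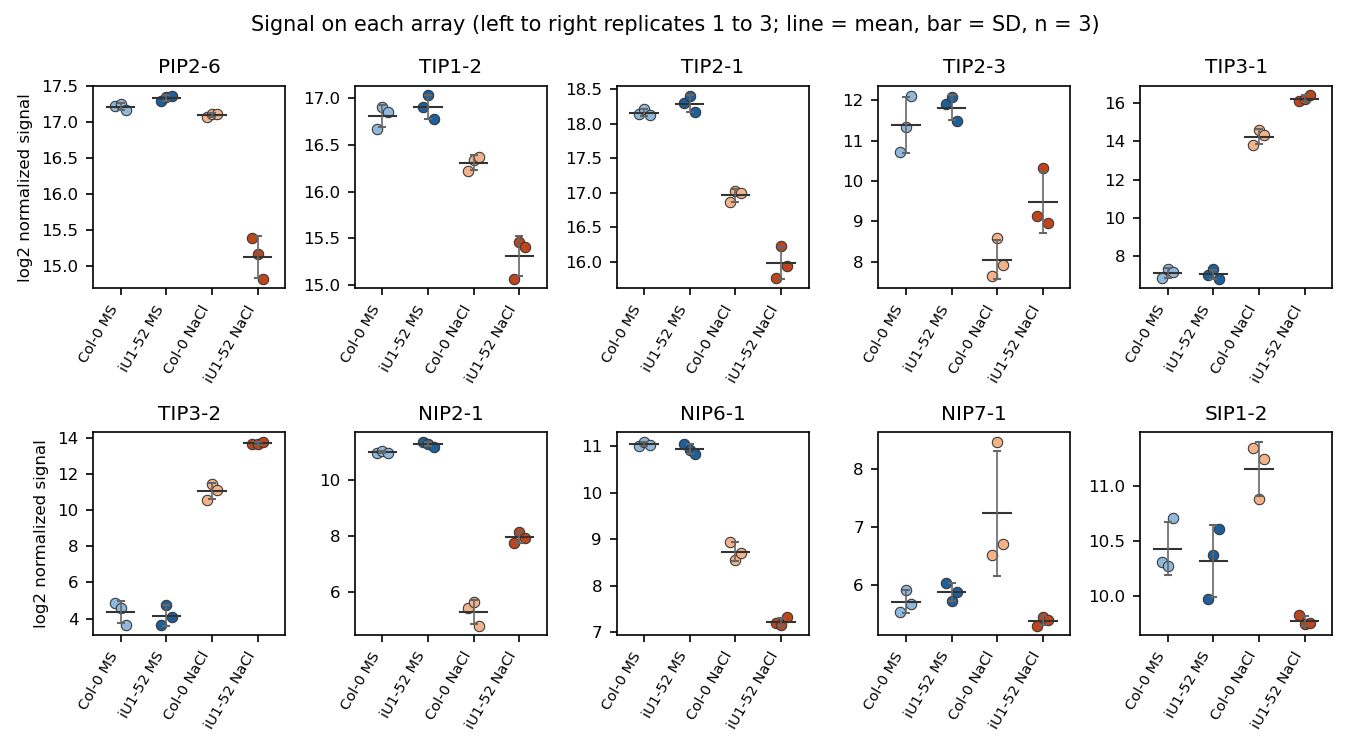
Normalized signal (log2) of the 10 aquaporins called between the lines in NaCl or in the interaction, on each of the 12 arrays, with the mean and SD of each group (n = 3) and a separate vertical scale for each gene. The 2 MS groups lie close together for every gene, while the 2 NaCl groups lie apart, up to 2.64 for NIP2-1.

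PIP1 proteins are plasma membrane channels of which none was called between the lines. All 5 members lay below 0 in iU1-52 on NaCl, with a median of -0.39 and differences from -0.53 to -0.05, and 3 of 5 passed the adjusted p alone, as 23.3% of all features did. Without the array that stood apart, PIP1-1 was 0.13 and PIP1-4 -0.28 (adjusted p = 0.063), 4 of 5 lay below 0 with a median of -0.28, and 2 of 5 passed the adjusted p, beside 32.8% of all features. PIP1-1 (PIP1;1, AT3G61430) had means of 15.29 ± 0.07, 15.42 ± 0.07, 15.24 ± 0.07 and 15.20 ± 0.41 in Col-0 MS, iU1-52 MS, Col-0 NaCl and iU1-52 NaCl, the order kept for all means below. The same means were 16.09 ± 0.08, 16.20 ± 0.04, 16.09 ± 0.05 and 15.92 ± 0.23 for PIP1-2 (PIP1;2, AT2G45960), whose NaCl groups overlapped. For PIP1-3 (PIP1;3, AT1G01620) they were 16.71 ± 0.08, 16.80 ± 0.14, 16.12 ± 0.03 and 15.73 ± 0.19. This gene and PIP1-5 were the PIP1 members called lower with salt in iU1-52. By the adjusted p alone 4 of 5 were lower there, beside 32.6% of all features. Without the array that stood apart 3 of 5 were, beside 36.5%. The means of PIP1-4 (PIP1;4, AT4G00430) were 14.80 ± 0.12, 14.83 ± 0.06, 14.65 ± 0.03 and 14.22 ± 0.35. Its 5 probes disagreed on salt, with 1 called higher, at 2.68 in Col-0 and 2.54 in iU1-52, and 4 not called. PIP1-5 (PIP1;5, AT4G23400) went from 15.78 ± 0.14 to 14.38 ± 0.04 in Col-0 and from 15.87 ± 0.10 to 13.84 ± 0.19 in iU1-52, a fall with salt of 2.64-fold (adjusted p = 1.2e-06) and 4.07-fold (adjusted p = 4.6e-08). Its interaction of -0.62 (adjusted p = 0.012) stayed under the fold limit.

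PIP2-6 (PIP2;6, AT2G39010), a plasma membrane water channel, showed the largest difference of a PIP between the lines. On the Col-0 MS arrays its signal was 17.23, 17.26 and 17.16, and on the iU1-52 MS arrays it was 17.29, 17.34 and 17.37. With NaCl it was 17.07, 17.12 and 17.12 in Col-0. In iU1-52 with NaCl it was 15.40, 15.17 and 14.82, so that every array of this group lay below all other 9 arrays. The difference between the lines in NaCl was -1.97 (SE 0.12, adjusted p = 1.1e-06), or 3.92-fold lower in iU1-52, and 4.30-fold lower without the array that stood apart. Salt changed it by -0.12 (SE 0.12, adjusted p = 0.4) in Col-0, within an interval of -0.38 to 0.15, and by -2.20 (SE 0.12, adjusted p = 5.6e-08) in iU1-52, and the interaction was -2.09 (SE 0.17, adjusted p = 2.5e-05). All 5 probes of this gene were called lower in iU1-52 on NaCl, by -2.49 to -1.59.

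The other 7 PIP2 members were not called between the lines, and 6 of them lay below 0. PIP2-8 (PIP2;8, AT2G16850) differed most among these, by -0.74 (SE 0.13, adjusted p = 0.0013), with means of 10.19 ± 0.06, 10.11 ± 0.07, 10.69 ± 0.08 and 9.96 ± 0.32. PIP2-1 (PIP2;1, AT3G53420), with means of 16.14 ± 0.12, 16.32 ± 0.09, 16.32 ± 0.01 and 15.89 ± 0.31, differed by -0.43 (SE 0.13, adjusted p = 0.021), and by -0.27 (adjusted p = 0.026) without the array that stood apart. For PIP2-7 (PIP2;7, AT4G35100) the means were 16.33 ± 0.11, 16.59 ± 0.13, 15.89 ± 0.03 and 15.41 ± 0.07 and the difference was -0.47 (SE 0.08, adjusted p = 0.00095). These 3 differences, and that of PIP2-3 given below, passed the adjusted p and not the fold limit. With PIP2-6, 5 of 8 PIP2 genes were lower by the adjusted p alone, beside 23.3% of all features. Without the array that stood apart 5 of 8 were, beside 32.8%. PIP2-2 (PIP2;2, AT2G37170) had means of 14.10 ± 0.08, 14.31 ± 0.05, 14.22 ± 0.09 and 13.97 ± 0.35, and its NaCl groups overlapped. PIP2-4 (PIP2;4, AT5G60660) had means of 11.09 ± 0.49, 11.54 ± 0.19, 9.20 ± 0.21 and 9.35 ± 0.26. It fell with salt 3.70-fold in Col-0 and 4.54-fold in iU1-52 (adjusted p = 3.8e-05 and 9.6e-06). PIP2-5 (PIP2;5, AT3G54820) rose with salt, 2.87-fold and 2.54-fold (adjusted p = 4.5e-07 and 6.3e-07), with means of 7.57 ± 0.14, 7.75 ± 0.09, 9.09 ± 0.10 and 9.09 ± 0.14. Its lines differed by 0.00 in NaCl, within an interval of -0.22 to 0.22, which leaves out a 2-fold difference.

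PIP2-3 (PIP2;3, AT2G37180), known as *RD28* for its induction by desiccation, had the largest rise with salt among the PIPs in each line when each gene was taken by its brightest probe, and 1 dimmer probe of PIP1-4 rose further. Its signal was 10.12, 10.12 and 10.14 in Col-0 MS and 10.26, 10.49 and 10.47 in iU1-52 MS. With NaCl the 3 arrays read 12.39, 12.63 and 12.48 in Col-0 and 11.64, 12.37 and 11.81 in iU1-52. The NaCl groups did not overlap with the MS groups or with each other. Salt raised it 5.18-fold in Col-0 (adjusted p = 5.3e-07) and 2.89-fold in iU1-52 (adjusted p = 8.7e-06). Between the lines in NaCl it differed by -0.56 (SE 0.16, adjusted p = 0.015), and by -0.41 (adjusted p = 0.032) without the array that stood apart. The interaction was -0.84 (SE 0.23, adjusted p = 0.019). All of these were past the adjusted p and under the fold limit. In the annotation, PIP2-3 and PIP2-2 are neighbouring genes, and whether their probes share signal was not tested.

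Among the TIPs, 3 were called higher and 1 lower in iU1-52 on NaCl. TIP3-1 (TIP3;1, AT1G73190) encodes alpha-TIP of the seed storage vacuole. On MS its signal was 6.82, 7.29 and 7.18 in Col-0 and 7.00, 7.29 and 6.80 in iU1-52. In Col-0 NaCl it was 13.79, 14.58 and 14.36. In iU1-52 NaCl it was 16.09, 16.20 and 16.42, above every Col-0 array. The rise with salt was 141-fold in Col-0 (adjusted p = 2.7e-09) and 590.0-fold in iU1-52 (adjusted p = 2.3e-10), and the interaction was 2.06 (SE 0.29, adjusted p = 0.00068). In NaCl the gene was 3.98-fold higher in iU1-52 (adjusted p = 3.7e-05).

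TIP3-2 (TIP3;2, AT1G17810), the beta-TIP of the same membrane, moved in the same directions. In MS it read 4.84, 4.57 and 3.66 in Col-0 and 3.66, 4.77 and 4.08 in iU1-52, and only 1 of 3 arrays in each MS group was well above background. Its fold rises with salt therefore start from a level that was mostly not measured above background. The gene passed the filter on dim probes through the NaCl groups, where it was high. On NaCl the arrays gave 10.59, 11.47 and 11.14 in Col-0 and 13.64, 13.66 and 13.80 in iU1-52, with all 6 arrays well above background and no overlap. The difference between the lines in NaCl was 2.63 (SE 0.35, adjusted p = 0.00017), or 6.20-fold, and 6.32-fold without the array that stood apart.

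Seed markers moved with the TIP3 genes. All 11 (storage proteins, oleosins and the late embryogenesis proteins EM1 and EM6) were called higher with salt in both lines and higher in iU1-52 than in Col-0 on NaCl. The interaction was called for 8 of the 11, each with the higher response in iU1-52, and not for the other 3. The log2 of their summed signal was 17.68 to 18.81 on the Col-0 NaCl arrays and 20.35 to 20.48 on the iU1-52 NaCl arrays. On MS it was 6.83 to 7.14 over the 6 arrays, and in each line 9 of the 11 genes were well above background on 0 arrays of that group. SESA3, CRU2 and EM1 had the largest differences between the lines in NaCl among them, 3.39 (SE 0.82), 2.89 (SE 0.85) and 2.82 (SE 0.39). The part of seed tissue in the TIP3 values was not tested, and in whole seedlings more cells of a type and more RNA per cell cannot be told apart.

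**Figure D2:**
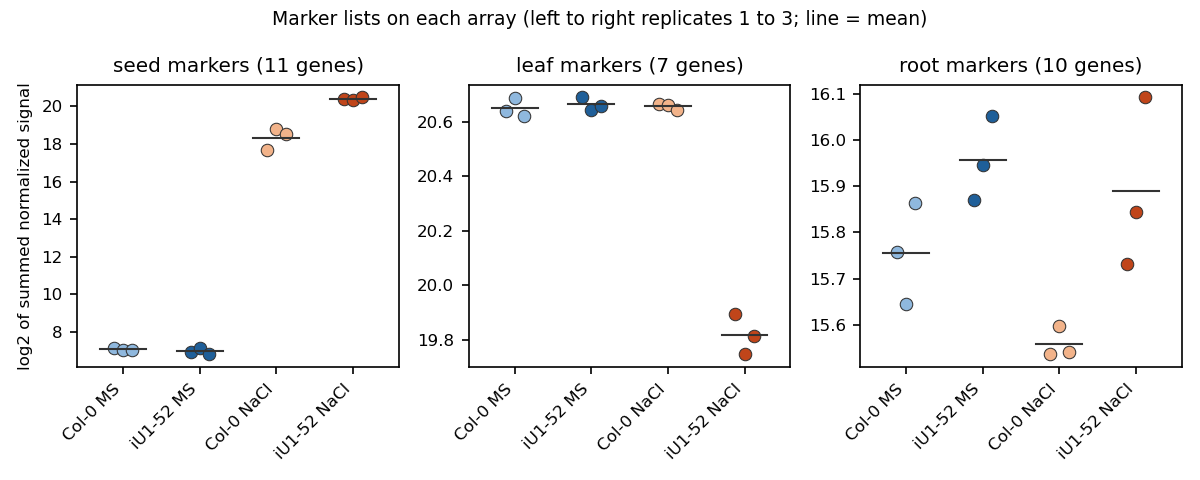
Log2 of the summed normalized signal of the seed, leaf and root marker lists on each array, by group, with the group mean as a line and a separate vertical scale for each list. Seed markers lay near 7 on MS and at 20.35 to 20.48 in iU1-52 NaCl, where leaf markers dropped to 19.75 to 19.90.

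TIP1-1, TIP1-2 and TIP2-1, channels of the vegetative vacuole, lay lower in iU1-52 on NaCl. TIP1-2 (TIP1;2, AT3G26520), a gamma-type channel of the vacuole, read 16.67, 16.91 and 16.85 in Col-0 MS and 16.91, 17.03 and 16.77 in iU1-52 MS. On the NaCl arrays it was 16.22, 16.34 and 16.37 in Col-0 and 15.06, 15.45 and 15.41 in iU1-52. The groups did not overlap, and the difference in NaCl was -1.001 (SE 0.12, adjusted p = 7.2e-05), at the fold limit itself. Without the array that stood apart it was -0.88 (adjusted p = 2.9e-05) and was no longer called. TIP2-1 (TIP2;1, AT3G16240), the delta-TIP, read 18.14, 18.22 and 18.12 in Col-0 MS and 18.30, 18.41 and 18.16 in iU1-52 MS. In NaCl its values were 16.86, 17.02 and 17.00 in Col-0 and 15.77, 16.23 and 15.94 in iU1-52. It lay just inside the fold limit in the interaction, -1.11 (SE 0.16, adjusted p = 7e-04), and just outside in NaCl, -0.98 (SE 0.11, adjusted p = 6.9e-05). TIP1-1 (TIP1;1, AT2G36830), the other gamma-type channel, had means of 16.16 ± 0.02, 16.23 ± 0.02, 15.94 ± 0.12 and 15.08 ± 0.36 and differed by -0.86 (SE 0.15, adjusted p = 0.00083). Salt lowered these 3 genes 3.02-fold, 4.98-fold and 2.23-fold in iU1-52 (TIP1-2, TIP2-1 and TIP1-1), and all 3 were called. In Col-0 only TIP2-1 was called among them, 2.30-fold lower with salt. TIP1-2 also fell there, at -0.50 (SE 0.12, adjusted p = 0.0028), under the fold limit, and TIP1-1 was at -0.22 (adjusted p = 0.2).

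TIP2-3 (TIP2;3, AT5G47450), a vacuolar channel known to pass ammonia as well as water, fell with salt in both lines. Its MS values were 10.72, 11.35 and 12.11 in Col-0 and 11.91, 12.07 and 11.48 in iU1-52, a wide spread for this gene. In Col-0 NaCl it was 7.65, 8.59 and 7.92. In iU1-52 NaCl it was 9.13, 10.33 and 8.95, and replicate 2 was the highest of these. The difference in NaCl was 1.42 (SE 0.43, adjusted p = 0.019), and both of its probes were called. Without iU1-52 NaCl replicate 2 it was 0.99 (adjusted p = 0.07), without Col-0 NaCl replicate 1 it was 1.22 (adjusted p = 0.071) and without Col-0 NaCl replicate 3 it was 1.35 (adjusted p = 0.054), and it was called in none of these 3 fits. The interaction, 0.98 (SE 0.60, adjusted p = 0.24), was not called, so a different response to salt was not shown for this gene.

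Among the remaining TIPs, TIP2-2 (TIP2;2, AT4G17340) had means of 14.33 ± 0.10, 14.39 ± 0.29, 13.60 ± 0.02 and 13.59 ± 0.68, and its NaCl difference of -0.01 had an interval of -0.62 to 0.60. TIP4-1 (TIP4;1, AT2G25810) stayed at 11.38 ± 0.17, 11.37 ± 0.12, 11.42 ± 0.11 and 11.57 ± 0.13, and was called in none of the 5 comparisons. TIP5-1 (TIP5;1, AT3G47440), a pollen aquaporin, had means of 6.64 ± 0.52, 6.50 ± 0.55, 7.09 ± 0.21 and 7.06 ± 0.37, with overlapping groups in each comparison of 2 groups. The 9 TIPs tested had a median of -0.01 between the lines in NaCl, and of 0.18 without the array that stood apart.

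NIP2-1 (NIP2;1, AT2G34390), a channel for lactic acid that is known for its induction in roots by low oxygen, had the largest fall with salt in Col-0. On MS it read 10.93, 11.02 and 10.95 in Col-0 and 11.33, 11.27 and 11.17 in iU1-52. In Col-0 NaCl it dropped to 5.43, 5.67 and 4.82. In iU1-52 NaCl it was 7.76, 8.16 and 7.93, between the MS arrays and the Col-0 NaCl arrays with no overlap. The fall was 50.5-fold in Col-0 (adjusted p = 4.9e-09) and 9.91-fold in iU1-52 (adjusted p = 7e-08). The gene was 6.23-fold higher in iU1-52 on NaCl (adjusted p = 2.8e-06), and 6.65-fold without the array that stood apart. Its interaction was 2.35 (SE 0.26, adjusted p = 0.00016). Under normexp background correction this interaction was 0.94 (adjusted p = 0.00032), under the fold limit, the difference in NaCl was 1.22 and the change with salt in Col-0 was -3.76, both still called.

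The boric acid channels did not move together. NIP6-1 (NIP6;1, AT1G80760), which distributes boric acid to young shoot tissue, read 11.01, 11.09 and 11.02 in Col-0 MS and 11.04, 10.92 and 10.83 in iU1-52 MS. With NaCl it was 8.94, 8.56 and 8.71 in Col-0 and 7.19, 7.17 and 7.32 in iU1-52, with no overlap. It fell with salt in both lines, 4.95-fold and 13.0-fold, and the response differed by -1.40 (SE 0.14, adjusted p = 9.9e-05), or by -0.99 (adjusted p = 0.00015) under normexp, just under the fold limit. NIP5-1 (NIP5;1, AT4G10380), the boric acid channel of root uptake, had means of 11.11 ± 0.08, 11.16 ± 0.01, 11.18 ± 0.09 and 11.60 ± 0.06. It was higher in iU1-52 on NaCl by 0.42 (SE 0.07, adjusted p = 0.00067), under the fold limit. NIP7-1 (NIP7;1, AT3G06100), a boric acid channel of anthers, read 5.54, 5.92 and 5.68 in Col-0 MS and 6.03, 5.73 and 5.88 in iU1-52 MS. In Col-0 NaCl it was 6.53, 8.47 and 6.70, with replicate 2 far above the others, and in iU1-52 NaCl it was 5.30, 5.45 and 5.39. Its linear normalized mean was 150.5 in Col-0 NaCl and 52.49, 58.85 and 41.68 in Col-0 MS, iU1-52 MS and iU1-52 NaCl. With a signal limit of 100, the gene entered the tests through Col-0 NaCl, the group where it was high. Its difference in NaCl was -1.85 (SE 0.40, adjusted p = 0.0036). Without Col-0 NaCl replicate 2 that difference was -1.23 (adjusted p = 0.00011), and the rise with salt in Col-0, 1.52 (SE 0.40, adjusted p = 0.0064), was 0.90 (adjusted p = 0.00028) and no longer called. Under normexp the difference in NaCl was -0.84 (adjusted p = 0.01), the rise in Col-0 0.70 (adjusted p = 0.016) and the interaction -0.88 (adjusted p = 0.058), and none was called.

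For the remaining NIPs, NIP1-2 (NIP1;2, AT4G18910), known as a transporter of aluminium malate, read 10.38, 10.41 and 10.42 in Col-0 MS and 10.42, 10.47 and 10.49 in iU1-52 MS. The NaCl arrays read 11.69, 11.79 and 11.75 in Col-0 and 12.21, 12.23 and 12.33 in iU1-52. It rose with salt 2.53-fold and 3.48-fold, and the interaction of 0.46 (SE 0.08, adjusted p = 0.0027) was under the fold limit. NIP1-1 (NIP1;1, AT4G19030), a channel that also passes arsenite, had means of 11.31 ± 0.26, 11.39 ± 0.17, 10.77 ± 0.05 and 11.32 ± 0.11 and was called in none of the 5 comparisons. NIP3-1 (NIP3;1, AT1G31885) rose 3.91-fold in Col-0 and 3.28-fold in iU1-52 (adjusted p = 4.8e-07 and 7.3e-07), with means of 6.57 ± 0.14, 6.58 ± 0.05, 8.54 ± 0.08 and 8.30 ± 0.29 and overlapping NaCl groups.

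SIP1-2 (SIP1;2, AT5G18290), a channel of the endoplasmic reticulum, was the only SIP called. It read 10.31, 10.28 and 10.70 in Col-0 MS and 9.97, 10.37 and 10.61 in iU1-52 MS. Under NaCl it was 11.34, 10.87 and 11.24 in Col-0, above every MS array, and 9.83, 9.74 and 9.76 in iU1-52, below every MS array. The difference in NaCl was -1.38 (SE 0.18, adjusted p = 0.00015), or 2.60-fold lower in iU1-52, and the interaction was -1.26 (SE 0.25, adjusted p = 0.0043). Neither salt response was called by itself, 0.72 (SE 0.18, adjusted p = 0.0041) in Col-0 and -0.54 (SE 0.18, adjusted p = 0.019) in iU1-52, both under the fold limit. SIP1-1 (SIP1;1, AT3G04090) had means of 13.12 ± 0.03, 13.12 ± 0.02, 12.79 ± 0.01 and 12.71 ± 0.07. SIP2-1 (SIP2;1, AT3G56950) had means of 12.57 ± 0.11, 12.66 ± 0.10, 12.62 ± 0.10 and 12.47 ± 0.09. Both stayed under the fold limit in all 5 comparisons.

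Counted over the family, salt in Col-0 raised 7 members and lowered 6, beside 11.1% and 12.1% of all features. The rises were those of PIP2-3, PIP2-5, TIP3-1, TIP3-2, NIP1-2, NIP3-1 and NIP7-1, and the falls those of PIP1-5, PIP2-4, TIP2-1, TIP2-3, NIP2-1 and NIP6-1. In iU1-52, salt raised 6 and lowered 11, beside 13.1% and 14.4% of all features. The rises were those of Col-0 without NIP7-1. The falls were those of Col-0 with PIP1-3, PIP2-6, PIP2-7, TIP1-1 and TIP1-2 added, and of these 5 the interaction was called for PIP2-6 and TIP1-2. Without the array that stood apart, 6 rose and 10 fell in iU1-52, beside 13.3% and 14.6% of all features, with TIP1-1 no longer called. The median of the 32 members was -0.02 in Col-0 and -0.42 in iU1-52, and the median of all features was -0.01 and 0.03. By subfamily, the medians in Col-0 and iU1-52 were -0.15 and -0.61 for PIP1, 0.15 and -0.39 for PIP2, -0.22 and -0.80 for TIP, 0.07 and -0.07 for NIP, and 0.05 and -0.41 for SIP. The median of the interaction, taken gene by gene, was -0.46 for PIP1, -0.64 for PIP2 and -0.25 for SIP, but 0.11 for TIP (5 of 9 above 0) and 0.38 for NIP (4 of 7 above 0).

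**Figure D3:**
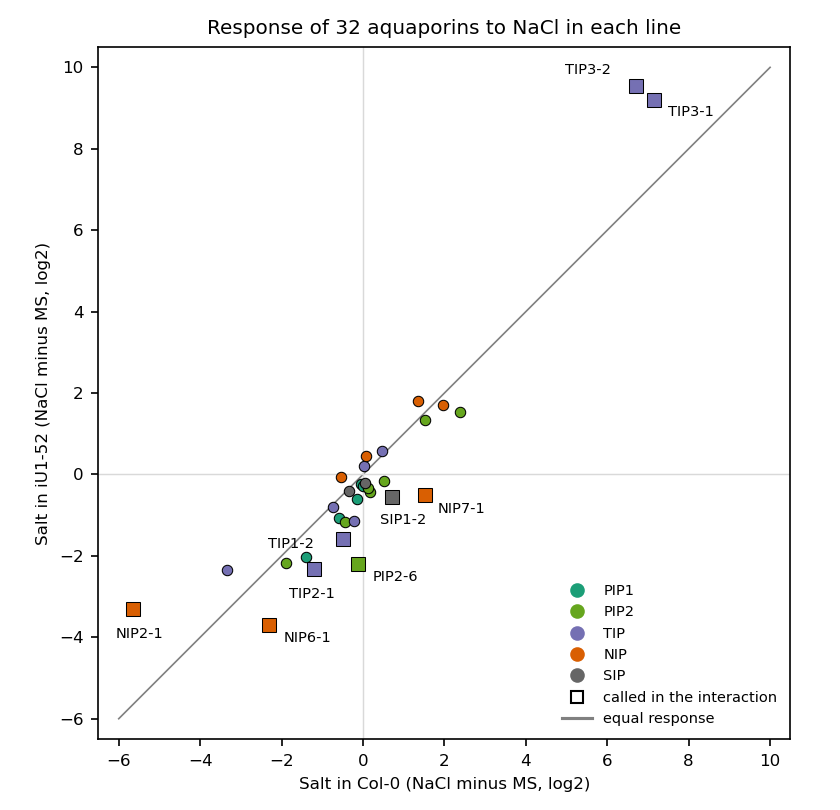
Response to NaCl (NaCl minus MS, log2) of each of the 32 tested aquaporins in Col-0 (horizontal) and iU1-52 (vertical), coloured by subfamily, with squares for the 9 members called in the interaction and a line of equal response. TIP3-1, TIP3-2 and NIP2-1 lie above the line and the other 6 squares below it.

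**Figure D4:**
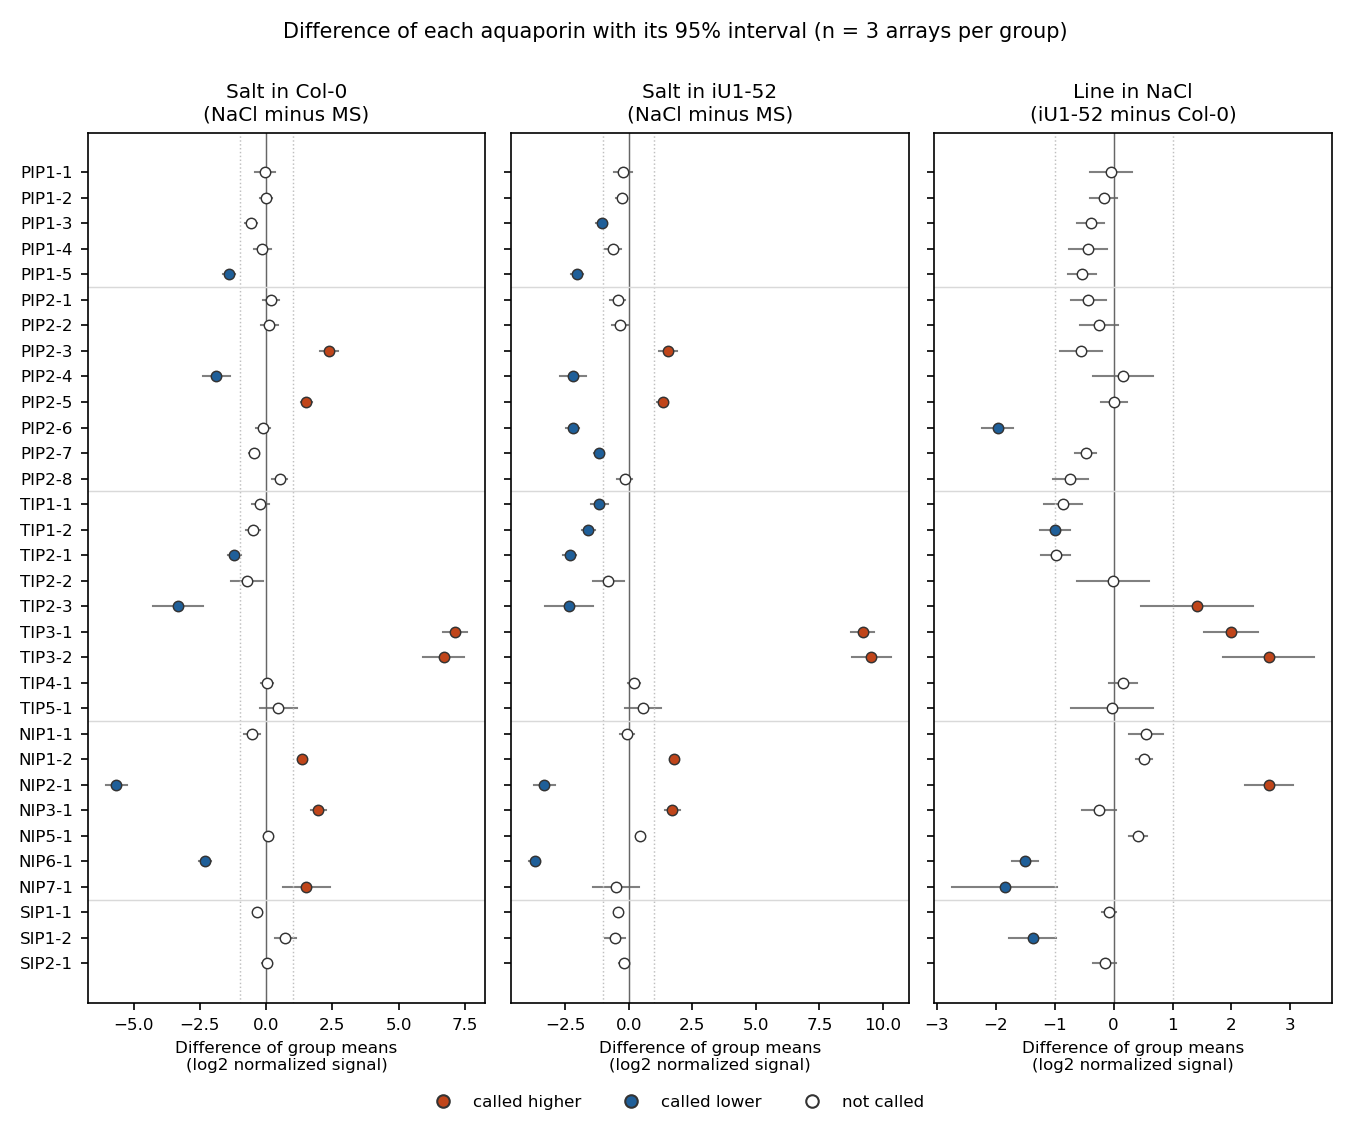
Difference of group means (log2) of each of the 32 tested aquaporins with its 95% interval, for salt in Col-0, salt in iU1-52 and the line in NaCl, with filled points for called members, dotted lines at 2-fold and a separate horizontal scale for each panel. Salt lowered 6 members in Col-0 and 11 in iU1-52, and between the lines in NaCl all 5 PIP1 and 7 of 8 PIP2 points lie below 0, and 4 of 5 PIP1 without iU1-52 NaCl replicate 1.

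Leaf markers also moved with the line in NaCl. Of 7, 4 were called lower in iU1-52, led by CA1 (carbonic anhydrase) at -3.99 and the light-harvesting genes LHCB3 at -2.76 and LHCB2.1 at -2.64. The log2 of their summed signal was 19.75 to 19.90 in iU1-52 NaCl and 20.64 to 20.67 in Col-0 NaCl, and on MS it was 20.62 to 20.69. Root markers were called for 1 of 10, CASP5 of the Casparian strip, at 2.12. The log2 of their summed signal was 15.54 to 15.60 in Col-0 NaCl and 15.73 to 16.09 in iU1-52 NaCl. On MS it was 15.65 to 15.86 in Col-0 and 15.87 to 16.05 in iU1-52, ranges that nearly touched. Between the lines on MS 0 of 10 root markers were called, beside 0.300% of all features higher and 0.0211% lower. The part of leaf and root proportions in the lower PIP2-6, TIP1-2, NIP6-1 and SIP1-2 and in the higher NIP2-1 was not tested. Of 4 pollen markers, a tissue that such seedlings lack, 3 were under the signal limit, and the one tested, AGP6, was called in none of the 5 comparisons. AGP6 was nevertheless well above background on all 3 arrays of every group. Its difference between the lines in NaCl was -0.50 (adjusted p = 0.00093) and its interaction -0.38 (adjusted p = 0.04), past the adjusted p and under the fold limit.

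Genes that work with aquaporins were counted in the same way. In NaCl, 0 of 9 PIP partners and regulators, 0 of 8 vacuolar proton pumps and 0 of 8 plasma membrane proton pumps were called by limma between the lines, with medians of 0.29, 0.17 and 0.21. Of all features, 5.35% were called higher and 5.68% lower. By the adjusted p alone, some genes of each list passed, with differences from -0.72 for AHA11 to 0.79 for AHA4. The same rule took in 27.7% of all features as higher and 23.3% as lower. TSPO, a membrane protein that binds PIP2-7 and leads to its breakdown, differed by 2.26 with an SE of 1.16 (adjusted p = 0.13). This SE was pooled over all groups, with and without salt. In NaCl the log2 of the summed signal of the PIP partners and regulators did not overlap between the lines. It was 15.82 to 16.05 in Col-0 and 17.33 to 17.43 in iU1-52. The other genes of that list differed by at most 0.71. The part of TSPO in the higher sum was not tested. Of the 5 boron exporters tested, 1 was called, BOR5, at -1.95 (adjusted p = 1.4e-05). With salt, 3 plasma membrane proton pumps were called lower in each line, beside 12.1% of all features in Col-0 and 14.4% in iU1-52. Called higher were 0, beside 11.1% and 13.1%, and 0 of 8 vacuolar pumps were called in either line.

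For 14 members more than 1 probe was kept, and the brightest probe stood for the gene. In 13 of the 14 all probes agreed in sign between the lines in NaCl, PIP1-2 being the exception. In 13 of the 14, PIP1-2 again apart, the difference of the brightest probe lay closer to 0 than the median of the gene's other probes. For TIP2-1 the brightest probe gave -0.98 and the other 4 had a median of -1.31 and were called lower. TIP1-1 had 2 of 4 probes called lower, from -1.31 to -0.36, and TIP1-2 had 5 of 5. The cause of this was not tested.

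**Figure D5:**
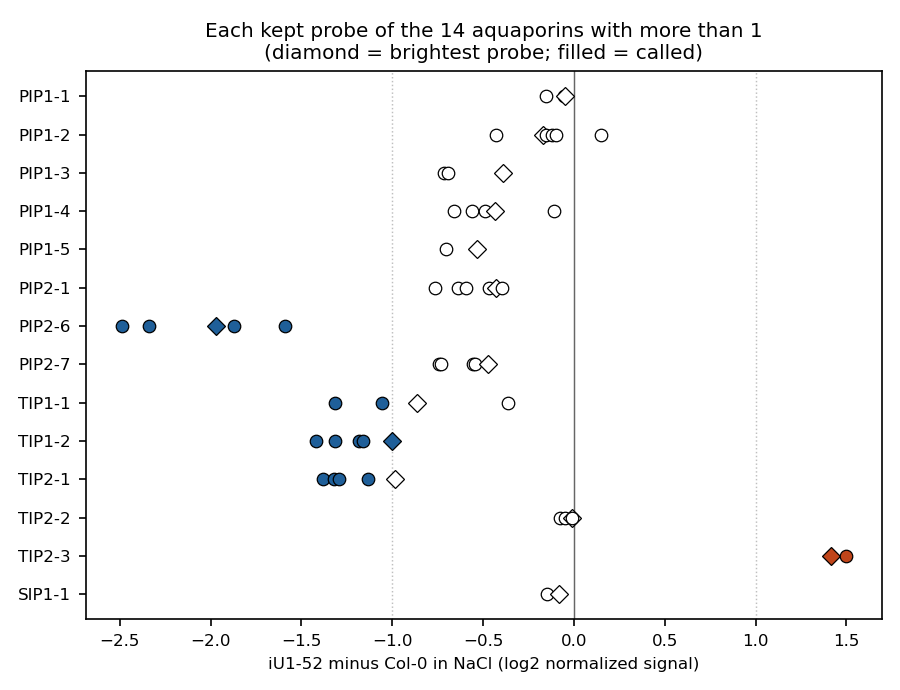
Difference between the lines in NaCl (log2) of each kept probe of the 14 aquaporins with more than 1 probe, with a diamond for the brightest probe, filled points for called probes (adjusted over all kept probes) and dotted lines at 2-fold. All 5 probes of PIP2-6 and of TIP1-2 and 4 of 5 of TIP2-1 are called lower.

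The 3 members under the signal limit of 100 on all 12 arrays were TIP1-3 (TIP1;3, AT4G01470), NIP4-1 (NIP4;1, AT5G37810) and NIP4-2 (NIP4;2, AT5G37820), all known from pollen. Their signals are given on the linear scale, before normalization between arrays. TIP1-3 had a linear signal of 46.5 to 66.1 in Col-0 MS and 44.7 to 61 in iU1-52 MS, well above background on all 6 arrays. With NaCl it was 6.32 to 10.2 in Col-0 and 3.07 to 4.02 in iU1-52, well above background on 0 of 6 arrays. When no probe was filtered, it was at least 3.36-fold higher on MS than on NaCl in Col-0 and at least 3.13-fold in iU1-52. The bound takes each NaCl array at its lowest signal well above background. The adjusted p from limma, 7.2e-06 in Col-0 and 2.7e-07 in iU1-52, belongs to the measured values and not to the bound. NIP4-2 ran from 33 to 75.5 over the 12 arrays and was well above background on all of them. NIP4-1 was well above background on 1 array of each NaCl group and ran from 5.25 to 64.7. The 2 NIP4 genes are neighbours in the annotation, and shared signal between their probes was not tested.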

How the data were processed

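Total RNA of whole seedlings was labelled with Cy3 and hybridized to 12 one-colour Agilent arrays, 1 per sample, and groups and replicate numbers came from the sample labels. The authors deposited the linear intensity of each spot from Feature Extraction 10.7.1.1, background-subtracted within the array and not normalized between arrays, together with median pixel intensities and flags. From these intensities, control and outlier-flagged spots were left out. After the methods of the study, probes under 100 on every array were removed and the values quantile normalized, then taken to log2. The baseline transformation of those methods was left out. Probes were named through accessions and TAIR10.1 locus tags (34358 of 43603 probes, or 78.8%, matched), and the probe with the highest mean stood for its gene. The members, lists and tests were chosen with earlier results of these data known.

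Comparisons were fitted over all 12 arrays in limma 3.58.1 (R 4.3.3, lmFit then eBayes, a mean for each group), with Benjamini-Hochberg adjustment over 23680 features, and the procedure was tested on simulated data. Values on every array are given for members called between the lines or in the interaction, and for the 3 largest rises and 3 largest falls called with salt in each line. The lists held known partners, pumps, boron exporters and tissue markers, and their genes were counted. From a list, at most the 3 called genes with the largest difference between the lines in NaCl were to be named. EM6, TSPO, AGP6, AHA4 and AHA11 were named after their values were seen. Alternatives were other scaling, background correction, filters, probe summaries, a replicate block, array weights, call rules, sample subsets and each array left out. The normexp alternative (offset 50) used median pixel intensities. Promoter and protein sequences were not used here. The number of arrays limits the precision of every value.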

Additional observations from a re-analysis of the deposited data

Results flagged for a closer look

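The response to salt differed between the lines, by the test of the interaction in limma, for 9 aquaporins. Values are the response in iU1-52 minus the response in Col-0 on the log2 scale. It was lower in iU1-52 for PIP2-6 (-2.09), NIP7-1 (-2.02), NIP6-1 (-1.40), SIP1-2 (-1.26), TIP2-1 (-1.11) and TIP1-2 (-1.09), and higher for TIP3-2 (2.82), NIP2-1 (2.35) and TIP3-1 (2.06). Of the 6 lower values, those of PIP2-6 and TIP1-2 came from a fall called in iU1-52 and not in Col-0, that of NIP7-1 from a rise called in Col-0 and not in iU1-52, and those of NIP6-1 and TIP2-1 from falls called in both lines. In Col-0, TIP1-2 also fell, at -0.50 (adjusted p = 0.0028) and under the fold limit, while PIP2-6 was at -0.12 (adjusted p = 0.4). For SIP1-2 neither line's response was called, and all 3 Col-0 NaCl arrays lay above the MS arrays while all 3 iU1-52 NaCl arrays lay below them. The value of NIP7-1 rests in part on Col-0 NaCl replicate 2, and without it the interaction was -1.40 (adjusted p = 7e-04). The gene also entered the tests through Col-0 NaCl, the group where it was high. Under normexp background correction the interactions of NIP7-1 (-0.88), NIP6-1 (-0.99) and NIP2-1 (0.94) were no longer called. TIP3-2 was well above background on 1 of 3 arrays in each MS group, so its value starts from levels that were mostly at background.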

How the results depend on the processing

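Under the alternative settings, the 48 called member differences gave 717 values, of which 697 were still called in the same direction, 20 were no longer called and 0 changed sign. By the adjusted p alone, with no fold limit, the counts of members rose to 7 higher and 14 lower for the lines in NaCl, 5 and 13 for the interaction, 12 lower for salt in Col-0 and 17 lower for salt in iU1-52, where 14.6% and 14.1% (interaction), 8298 of 23680 (salt in Col-0) and 32.6% (salt in iU1-52) of all features passed the same rule. Under normexp background correction, 3 members were lower in iU1-52 on NaCl, with TIP1-2 and NIP7-1 lost, and NIP2-1, NIP6-1 and NIP7-1 were lost from the interaction. Scaling to the 75th percentile added TIP1-1 and TIP2-1 to those lower in NaCl. The NIP median turned direction with the filter, which decides whether NIP genes under the signal limit enter: between the lines in NaCl it was 0.42, but -0.14 with no filter on dim probes and 0.14 with probes well above background, and for the interaction it was 0.38, -0.13 and 0.13 in the same order. For salt in Col-0 the NIP median was -0.16 with probes well above background, and the PIP1 median was 0.0058 after scaling to the 75th percentile and -0.0084 with the mean of all probes, which gave -0.23 for PIP1 with salt in iU1-52. Leaving out each array in turn moved the TIP median for salt in iU1-52 between -1.20 and -0.59, and the members lower in iU1-52 on NaCl between 4 and 7. NIP7-1 was also lost in the interaction without Col-0 MS replicate 1 (adjusted p = 0.053) or iU1-52 MS replicate 1 (adjusted p = 0.054). Array weights gave iU1-52 NaCl replicate 1 a weight of 0.0564 and took TIP1-2 from the lines in NaCl and TIP1-1 from salt in iU1-52. A 2-way ANOVA followed by the fold limit lost NIP7-1 in each of its 3 comparisons. Arrays with the same replicate number shared a slide. Their deviations from the group means correlated from -0.05 to 0.21, over 0.1 in 3 of 12 pairs, and 10 of 12 arrays were closest to their own number. A fit with the replicate number, and so the slide, as a block changed no call of a member, and the counts stayed 4 higher and 5 lower for the lines in NaCl. Apart from the filters and left-out arrays, the cause of these changes was not tested. Signal over background limits TIP3-2 on MS and the 3 members under the signal limit.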
